A study of Mus musculus with 6 samples.

Results

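The genes described here encode the nuclear subunits of respiratory complexes II, III and IV, of the ATP synthase (complex V) and of cytochrome c. They are the rows of the deposited expression table whose symbol is SDHA to SDHD, CYC1 or CYCS, or begins with UQCR, ATP5 or COX4 to COX8. No matching row carried a pseudogene suffix (0 rows), so the rule gave 48 genes of 18388 in the table: 4 for complex II, 9 for complex III with cytochrome c1, 1 for cytochrome c, 17 for complex IV and 17 for complex V. The table writes the ATP synthase genes under their older names, and the newer mouse name is given at first mention.

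RNA-seq had been carried out on morula-like aggregates, a 3-dimensional model of the compacting mouse embryo, grown from mouse expanded pluripotent stem cells. There were 3 libraries from cultures treated with perfluorooctanoic acid (PFOA), a persistent fluorinated surfactant, and 3 from vehicle controls (DMSO). Both groups were cultured at 37 °C under 5% CO2 and 20% O2, and no source used here gives the PFOA dose or how long it was applied. The labels name no genotype, strain or separate cultures for the replicates, so p-values reflect only how far these libraries vary, and that variation may be technical.

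Electrons from succinate enter the respiratory chain at complex II, pass through ubiquinone to complex III, travel on cytochrome c to complex IV and end on oxygen. Complexes III and IV pump protons across the inner mitochondrial membrane, and complex V uses the returning protons to make ATP. Complex II is encoded wholly in the nucleus, whereas the catalytic core of complex IV and parts of complexes III and V come from mitochondrial DNA, whose genes are not analysed here. Many nuclear subunits are small proteins with short transcripts, and the transcription factors NRF1, GABPA and YY1 are known to act at their promoters in mammalian cells.

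Promoter sequence was available for 36 of the 48 genes in RefSeq (GRCm38.p6), and it was searched for letters that those factors can bind. The NRF1 letters, GCGCA and GCGC with 1 base of any kind between them, were found on either strand, from 250 bases before to 50 bases after the start, in 10 of the 36 genes (27.8%), against 5.19% of 27025 genes with a promoter in the same table. The ETS letters CCGGAAGT, which GABPA can bind, were in 4 (11.1%, against 4.31%), and the YY1 letters AAGATGGCG in 2 (5.56%, against 1.64%). The 27025 genes were not limited to genes expressed in these libraries, so the shares compare unlike sets. ATP5H held both NRF1 and ETS letters, at places that do not overlap. Below are the 250 bases before the start of 5 genes, 5′ to 3′ along the gene, with NRF1 letters in capitals. Sdha and Sdhd are a pair from one complex of which only Sdhd was lower in PFOA at an unadjusted p under 0.05. Atp5k had the smallest p of the 45 tested subunits, and Cox6a1 is a gene with matches that did not differ past that p. Cycs was lower in each PFOA library than in each DMSO library and has no exact match. Its window does hold tcgcatgcgc, which misses the NRF1 letters by 1 base.
Sdha (chr13:74350241-74350490, minus strand): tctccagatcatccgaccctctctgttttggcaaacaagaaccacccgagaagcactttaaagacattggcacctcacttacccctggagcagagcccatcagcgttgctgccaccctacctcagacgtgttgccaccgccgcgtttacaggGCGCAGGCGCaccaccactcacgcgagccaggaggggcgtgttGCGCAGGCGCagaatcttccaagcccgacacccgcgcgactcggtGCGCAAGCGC
Sdhd (chr9:50603850-50604099, minus strand): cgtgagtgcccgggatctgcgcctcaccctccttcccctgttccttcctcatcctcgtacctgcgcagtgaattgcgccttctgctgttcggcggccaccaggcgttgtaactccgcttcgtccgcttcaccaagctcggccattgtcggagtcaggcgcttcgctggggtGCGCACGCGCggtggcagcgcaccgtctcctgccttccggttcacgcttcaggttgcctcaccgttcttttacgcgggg
Atp5k (chr5:108434400-108434649, minus strand): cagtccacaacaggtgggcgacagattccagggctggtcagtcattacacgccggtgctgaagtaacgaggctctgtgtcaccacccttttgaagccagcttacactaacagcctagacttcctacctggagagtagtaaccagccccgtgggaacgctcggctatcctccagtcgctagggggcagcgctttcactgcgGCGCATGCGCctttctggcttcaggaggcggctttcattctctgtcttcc
Cox6a1 (chr5:115348959-115349208, minus strand): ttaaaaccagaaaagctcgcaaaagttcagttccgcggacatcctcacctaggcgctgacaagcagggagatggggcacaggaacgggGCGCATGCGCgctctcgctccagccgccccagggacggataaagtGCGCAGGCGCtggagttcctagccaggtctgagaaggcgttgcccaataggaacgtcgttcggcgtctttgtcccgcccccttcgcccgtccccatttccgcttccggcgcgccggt
Cycs (chr6:50566570-50566819, minus strand): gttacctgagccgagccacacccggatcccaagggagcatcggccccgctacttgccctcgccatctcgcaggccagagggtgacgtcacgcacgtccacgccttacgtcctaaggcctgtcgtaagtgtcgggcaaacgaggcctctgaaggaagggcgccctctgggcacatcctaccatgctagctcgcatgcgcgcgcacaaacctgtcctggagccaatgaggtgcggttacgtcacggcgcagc
The Sdha window held 3 exact matches, the Atp5k window 1 and the Cycs window 0. Of the 10 genes with NRF1 letters 7 were lower in PFOA at an unadjusted p under 0.05, with a median log2 fold change of −0.16. Of the 25 tested genes with a promoter and no such letters 17 were, with a median of −0.20. Of all tested genes 12.5% were lower at that p, and their median was −0.0065. A match describes these exact letters in this window and was not tested for binding. Whether the letters go with the fold changes was not tested either.

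Nearly every tested subunit had a lower level in PFOA than in DMSO, by small amounts. Values are FPKM (fragments per kilobase of transcript, scaled to the mapped fragments of the library), and fold changes are differences of log2(FPKM + 1). Of the 45 subunits tested, those with a mean of at least 1 FPKM, 43 had a log2 fold change below 0, against 52.4% of the 11876 genes tested. The median over the 45 was −0.19 (−12.5%), against −0.0065 over all tested genes. No subunit passed a Benjamini-Hochberg adjusted p of 0.05 over all genes (0 of 45 in limma, with a smallest adjusted p of 0.11), a threshold that 1 gene passed in the lower direction (0.00842% of those tested) and none in the higher (0%). At an unadjusted p under 0.05 in limma, 28 of 45 were lower (62.2%) and 0 higher, against 12.5% and 8.56% of all tested genes. In 26 of 45 each PFOA library lay below each DMSO library, which was the case for 13.7% of tested genes, and in 0 each lay above, against 13.5%.

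**Figure D1:**
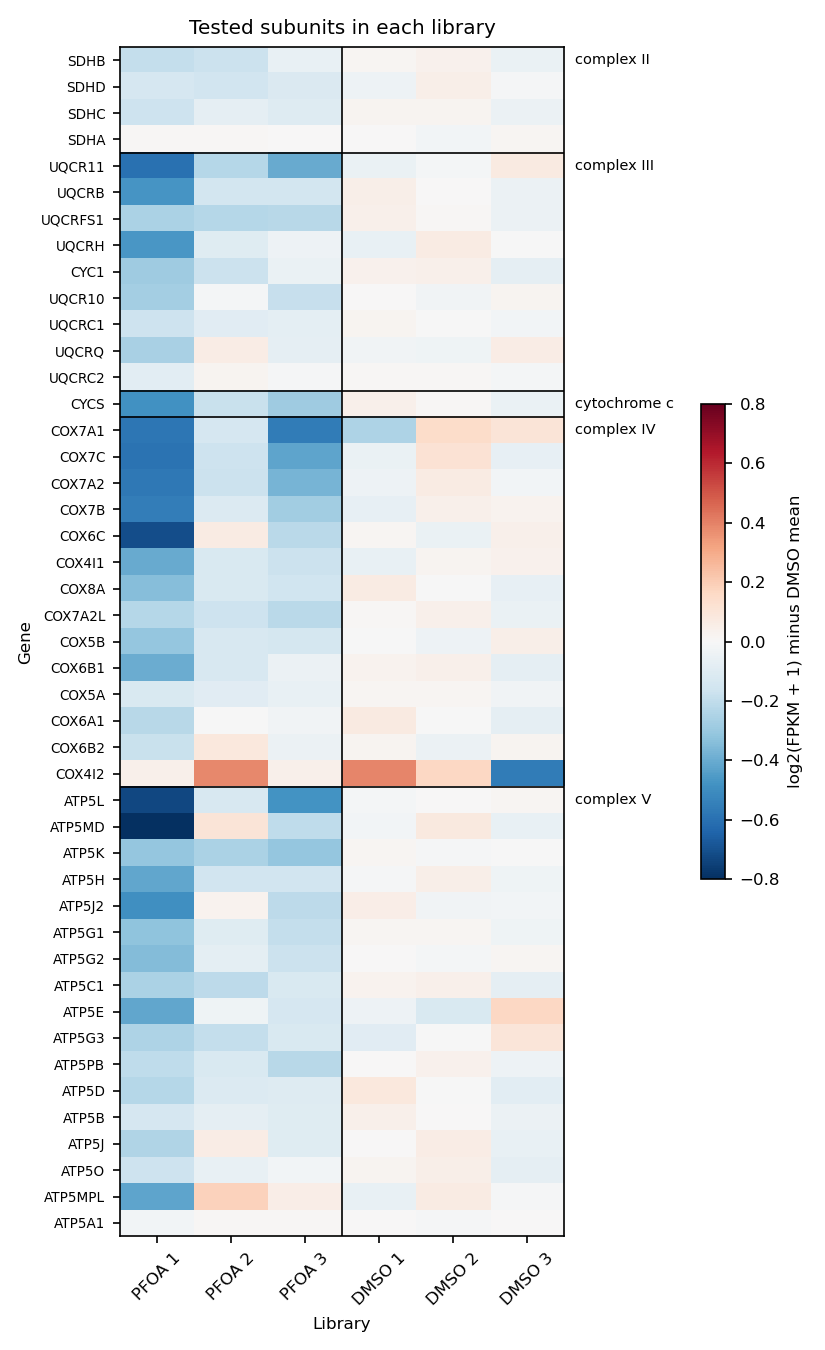
Each row is 1 of the 45 tested subunits and each column a library; colour gives log2(FPKM + 1) minus the mean of the 3 DMSO libraries, with the complexes separated by lines. The PFOA 1 column is the bluest, and the rows for SDHA and ATP5A1 are close to white in all 6 libraries.

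The size of the difference depended on the library. PFOA 1 was the lowest of the PFOA libraries for 40 of 45 subunits, against 36.6% of all tested genes, and lay below the lowest DMSO value for 43, against 36% of all tested genes. PFOA 2 lay below the lowest DMSO value for 29 subunits, against 30.3% of all tested genes, and PFOA 3 for 35, against 29.7%. The median over the 45, relative to the DMSO mean, was −0.28, −0.11 and −0.13 in PFOA 1 to 3 and 0.0065, 0.012 and −0.025 in DMSO 1 to 3, so the groups did not overlap. Without PFOA 1 the median log2 fold change was −0.11, with 39 of 45 lower and 22 lower at an unadjusted p under 0.05 (all tested genes: 9.16% lower and 5.2% higher). Together the 48 genes made up 2.21%, 2.48% and 2.36% of all FPKM in PFOA 1 to 3, against 2.53%, 2.54% and 2.53% in DMSO 1 to 3.

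Scaling and transcript length moved with the result. The sum of FPKM was 585739 to 630644 in PFOA and 641975 to 657239 in DMSO. With every library rescaled to one sum the subunit median was −0.10, and the median over all tested genes moved from −0.0065 to 0.071. At an unadjusted p under 0.05, 18 subunits were then lower and 0 higher, against 4.21% and 21.1% of all tested genes. After quantile normalization the subunit median was −0.11 (0.010 over all tested genes). At that p 19 subunits were then lower and 0 higher, against 9.38% and 11.5% of all genes. The longest coding transcript of the tested subunits had a median of 809 nt, against 3046 nt for the other tested genes, and Spearman's rho between that length and the fold change was 0.59 across the other genes and 0.29 across the 45 subunits. For other genes under 1000 nt the median log2 fold change was −0.16, with 38.2% lower at an unadjusted p under 0.05; the 26 subunits in that class had −0.20, with 57.7%. Between 1000 and 2000 nt the other genes stood at −0.090, with 28.5%, and the 13 subunits at −0.15, with 76.9%. For the 6 subunits at or above 2000 nt the median was −0.16, whereas other genes of 2000 to 4000 nt had −0.013 and longer ones 0.066. These classes use the longest coding transcript. Among the 6, Atp5md and Sdhc had a median coding transcript of only 362 and 815 nt. For Sdha, Atp5a1, Atp5g1 and Cycs it was 1811 nt or more. After a trend on longest-transcript length was taken out of each library, the subunit median was −0.041, and 12 were lower and 2 higher at an unadjusted p under 0.05 (6.77% and 6.62% of all tested genes). The part of length in the result was not tested beyond these values.

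**Figure D2:**
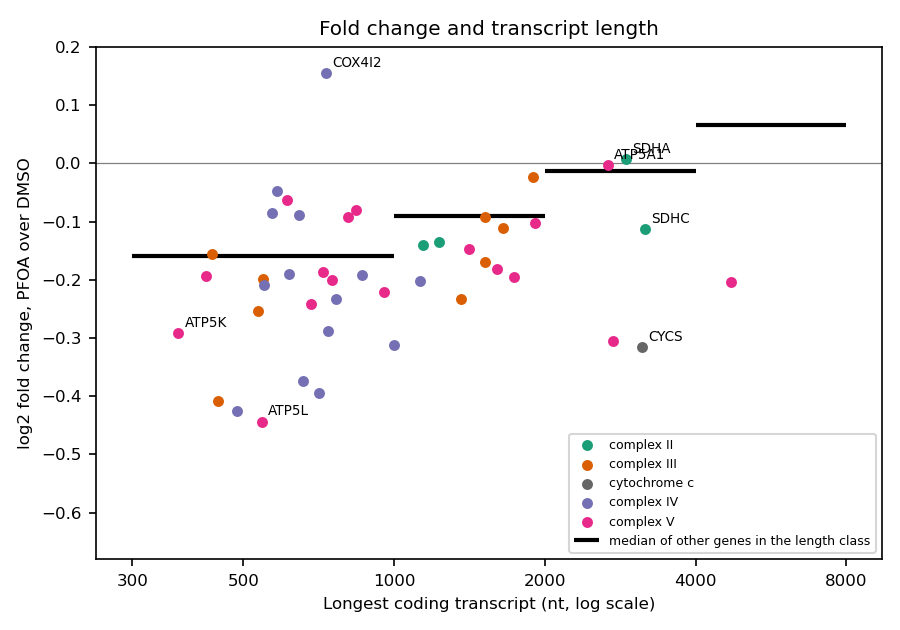
Each point is a tested subunit, with the length of its longest coding transcript (nt, log scale) against its log2 fold change, PFOA over DMSO; black bars are medians of all other tested genes in 4 length classes, of which the shortest and longest are open-ended. The bars run from −0.16 in the shortest class to 0.066 in the longest, and CYCS lies far below the bar of its class while SDHA and ATP5A1 lie close to it.

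Complex II, succinate dehydrogenase, had subunits of similar level. Its 4 subunits averaged between 73.3 and 82.7 FPKM over the 6 libraries. The catalytic flavoprotein Sdha was at 73.7, 73.5 and 73.3 FPKM in PFOA 1 to 3, against 73.3, 72.1 and 74.1 FPKM in DMSO 1 to 3. The groups overlapped, and the log2 fold change was 0.0069 (95% confidence interval −0.067 to 0.081; limma adjusted p = 0.923). Sdhb, Sdhc and Sdhd were lower in each PFOA library than in each DMSO library, as were 13.7% of all tested genes. At an unadjusted p under 0.05, 3 of the 4 subunits were lower, against 12.5% of all tested genes. With one sum 0 were lower at that p, against 4.21% of all tested genes (median over the 4 −0.037, against 0.071 over all tested genes). After the length trend was taken out 1 was lower at that p, against 6.77% of all tested genes (median over the 4 −0.020). Sdhb then stood at −0.019, Sdhc at −0.10 and Sdhd at −0.022. The iron-sulfur subunit Sdhb was at 71.0, 72.0 and 78.1 FPKM in PFOA, against 82.1, 83.4 and 78.4 in DMSO (log2 fold change −0.14, SE 0.046; limma adjusted p = 0.161). Sdhc, a membrane anchor, was at 76.6, 81.9 and 79.9 FPKM in PFOA and 87.3, 87.4 and 83.4 in DMSO (−0.11, SE 0.040; limma adjusted p = 0.173). Sdhd, the other anchor, was at 74.1, 73.2 and 75.2 FPKM in PFOA, against 79.4, 84.4 and 81.0 in DMSO (−0.14, SE 0.037; limma adjusted p = 0.134). A ratio of 2 genes within a library does not depend on the library's scaling, though it keeps any difference in length. The ratio of Sdhd to Sdha was 1.01 ± 0.015 in PFOA and 1.12 ± 0.048 in DMSO (SD, n = 3 each), and the groups did not overlap (two-sided exact permutation p = 0.1, the smallest that 3 against 3 libraries can give; 0.217 when adjusted over the 13 such tests made). The ratio of Sdhb to Sdha was 1.00 ± 0.055 in PFOA and 1.11 ± 0.050 in DMSO, with overlap (exact permutation p = 0.2).

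Complex III, the cytochrome bc1 complex, had 9 of 9 tested subunits lower, 6 of them at an unadjusted p under 0.05, with a median log2 fold change of −0.17. Of all tested genes 52.4% were lower, 12.5% at that p. After the length trend was taken out 6 of 9 were lower, 2 at that p (median −0.031), against 6.77% of all tested genes at that p. With one sum 3 were at that p, against 4.21% of all tested genes, and without PFOA 1 the median was −0.099. Without DMSO 1 or DMSO 2, 2 and 3 were at that p, against 986 and 983 of the 11876 tested genes. The smallest p was that of the Rieske iron-sulfur protein Uqcrfs1, which passes electrons from ubiquinol to cytochrome c1. It was at 61.5, 62.8 and 63.1 FPKM in PFOA, against 75.9, 74.0 and 71.1 in DMSO (−0.23, SE 0.037; limma adjusted p = 0.11). The PFOA libraries were close together and all below DMSO, and without PFOA 1 the log2 fold change was −0.22. Uqcr11, a small subunit, was at 205, 264 and 235 FPKM in PFOA, against 299, 307 and 326 in DMSO (−0.41, SE 0.084; limma adjusted p = 0.11). Uqcrb, another small subunit, was at 342, 428 and 429 FPKM in PFOA and 489, 475 and 458 in DMSO (−0.25, SE 0.084; limma adjusted p = 0.161). The groups were apart for both, with PFOA 1 the lowest, and without PFOA 1 Uqcrb stood at −0.15.

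Cytochrome c1 (Cyc1), the heme subunit that hands electrons to cytochrome c, was at 122, 132 and 143 FPKM in PFOA and 152, 152 and 141 in DMSO (−0.17, SE 0.061; limma adjusted p = 0.175). PFOA 3 lay above DMSO 3, so the groups overlapped. The core protein Uqcrc2 was at 93.06, 100.01 and 98.17 FPKM in PFOA and 99.1, 99.3 and 97.4 in DMSO (−0.023, 95% confidence interval −0.11 to 0.064; limma adjusted p = 0.763), and its difference turned to between 0.033 and 0.064 under both scalings and both length corrections. Uqcrq, a small ubiquinone-binding subunit, was at 59.9, 74.8 and 68.2 FPKM in PFOA and 70.5, 70.3 and 74.9 in DMSO (−0.091, SE 0.073; limma adjusted p = 0.499). Uqcrc1, Uqcrh and Uqcr10 had log2 fold changes of −0.11, −0.20 and −0.16. Without PFOA 1 Uqcrh stood at −0.066 and Uqcr10 at −0.099, and after the length trend was taken out they stood at 0.0027 and 0.071.

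Cytochrome c (Cycs), the mobile electron carrier that also triggers caspase activation when it leaves mitochondria, had one of the larger differences. It was at 41.9, 52.0 and 48.2 FPKM in PFOA, against 60.7, 59.5 and 56.8 in DMSO, that is 47.4 ± 5.1 and 59.0 ± 2.0 (SD, n = 3 each). The log2 fold change was −0.32 (SE 0.072; limma adjusted p = 0.123). Each PFOA library was below each DMSO library. Its longest transcript is 3123 nt, and its log2 fold change was −0.30 with the trend on that length removed, −0.28 after quantile normalization and −0.23 without PFOA 1. In GENCODE M21, 28.5% of the 50-nt words of its transcript also occur in transcripts of other genes, so reads could have been split. The testis form Cyct, which the selection rule does not include, was at 10.10, 11.96 and 10.14 FPKM in PFOA and 11.0, 11.7 and 10.4 in DMSO (−0.038, SE 0.073; limma adjusted p = 0.796). Cyct made up 18.5 ± 1.0% of the 2 cytochrome c transcripts in PFOA and 15.7 ± 0.55% in DMSO, with no overlap (SD, n = 3 each; two-sided exact permutation p = 0.1).

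**Figure D3:**
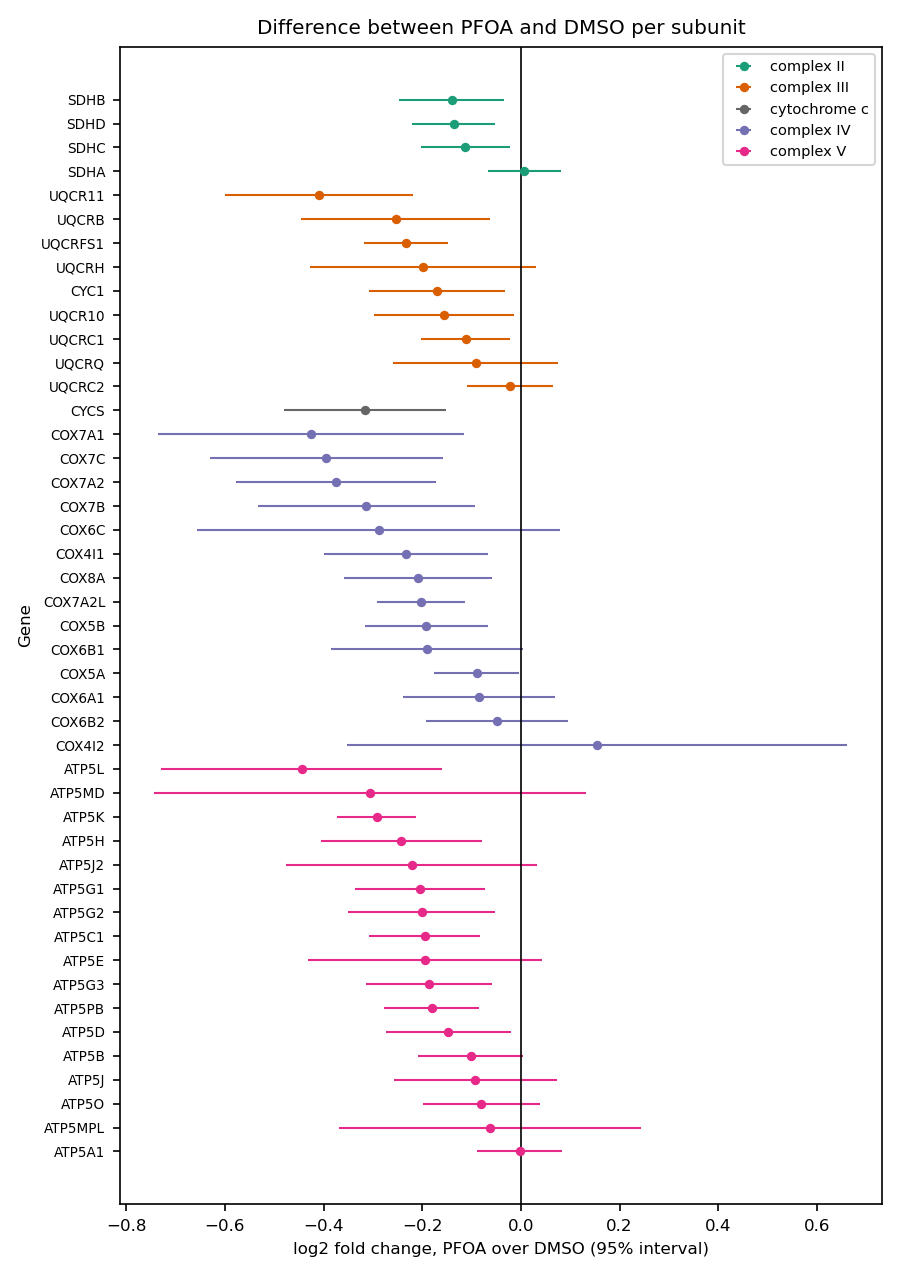
Points are log2 fold changes, PFOA over DMSO, for the 45 tested subunits, ordered by complex, with bars for the 95% confidence interval of each in limma (3 libraries per group). The point estimates run from −0.44 for ATP5L to 0.15 for COX4I2, whose interval is the widest.

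Complex IV, cytochrome c oxidase, had 13 of 14 tested subunits lower and 9 lower at an unadjusted p under 0.05, with a median of −0.21. Of all tested genes 52.4% were lower, 12.5% at that p. After the length trend was taken out 10 of 14 were lower, with 4 lower and 2 higher at that p (median −0.055). Of all tested genes 6.77% were then lower and 6.62% higher at that p. All 5 tested Cox7 genes were among the 9 (log2 fold changes −0.43 to −0.20), whereas 0 of the 4 tested Cox6 genes were (−0.29 to −0.048). Cox4i1, the ubiquitous form of the subunit through which ATP is known to inhibit the enzyme, was at 422, 514 and 496 FPKM in PFOA, against 537, 568 and 574 in DMSO (−0.23, SE 0.073; limma adjusted p = 0.152), with the groups apart, and stood at −0.15 without PFOA 1. Cox7c, the most abundant complex IV subunit here, was at 962, 1294 and 1081 FPKM in PFOA, against 1401, 1574 and 1387 in DMSO (−0.39, SE 0.10; limma adjusted p = 0.13). Cox7a2 was at 101, 133 and 116 FPKM in PFOA and 146, 158 and 148 in DMSO (−0.37, SE 0.089; limma adjusted p = 0.127). In both, every PFOA library was below every DMSO library and PFOA 1 was lowest. Cox7a2l, which joins complexes III and IV into supercomplexes, was at 110, 115 and 110 FPKM in PFOA and 129, 133 and 124 in DMSO (−0.20, SE 0.039; limma adjusted p = 0.11). Its PFOA libraries were even, and the value without PFOA 1 was −0.19. Cox7b was at 129, 176 and 156 FPKM in PFOA and 182, 195 and 193 in DMSO (−0.31, SE 0.096; limma adjusted p = 0.15). Cox8a was at 692, 805 and 783 FPKM in PFOA and 918, 875 and 838 in DMSO (−0.21, SE 0.065; limma adjusted p = 0.153). Both were apart between the groups, and Cox7b stood at −0.19 without PFOA 1.

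The Cox6 genes overlapped between the groups. Cox6a1 was at 732, 853 and 838 FPKM in PFOA and 898, 854 and 815 in DMSO (−0.085, SE 0.068; limma adjusted p = 0.494). Cox6b1 was at 409, 493 and 523 FPKM in PFOA and 550, 555 and 513 in DMSO (−0.19, SE 0.085; limma adjusted p = 0.245). Cox6b2, known as the testis form of that subunit, was at 92.2, 111 and 101 FPKM in PFOA and 106, 101 and 106 in DMSO (−0.048, SE 0.063; limma adjusted p = 0.692). Cox6a1 and Cox6b2 stood at 0.11 and 0.15 after the longest-transcript trend was taken out, and were the 2 subunits then higher at an unadjusted p under 0.05. Cox6c was at 302, 518 and 426 FPKM in PFOA and 500.3, 477 and 508 in DMSO (−0.29, SE 0.16; limma adjusted p = 0.337), with PFOA 1 far below the rest. Without PFOA 1 Cox6a1 stood at −0.016, Cox6b1 at −0.087, Cox6b2 at 0.018 and Cox6c at −0.076. Cox5a and Cox5b, which contact the core, were apart between the groups, at −0.089 and −0.19. Cox5a stood at 0.0029 after quantile normalization and 0.094 after the length trend was taken out, where Cox5b stood at −0.041. The difference between Cox7 and Cox6 genes was seen in these values and not tested.

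Of the complex IV subunits with tissue isoforms the aggregates expressed mainly the widespread forms, with 2 exceptions at appreciable level. Cox6b2 made up 17.7 ± 1.3% of the Cox6b transcripts in PFOA and 16.3 ± 0.87% in DMSO, and Cox7a1, the heart and muscle form, made up 14.6 ± 1.1% of Cox7a1 and Cox7a2 in PFOA and 15.2 ± 1.6% in DMSO (SD, n = 3 each; two-sided exact permutation p = 0.2 and 0.6). Cox7a1 itself was at 17.73, 24.46 and 17.95 FPKM in PFOA and 22.6, 29.9 and 29.0 in DMSO (−0.43, SE 0.14; limma adjusted p = 0.155), with PFOA 2 above DMSO 1. Cox4i2, the lung form, was at 1.87, 2.63 and 1.86 FPKM in PFOA and 2.65, 2.13 and 0.89 in DMSO, too low and too variable to read a direction (0.15, 95% confidence interval −0.35 to 0.66; limma adjusted p = 0.719). Another 3 forms were below the filter and untested. Cox6a2, the muscle form, was listed at 0 in 5 libraries and at 0.16 FPKM in DMSO 1. Cox7b2 was listed at 0, 0.22 and 0.45 FPKM in PFOA and 0.45, 0 and 0 in DMSO. Cox8c was listed at 0, 0 and 0.3 FPKM in PFOA and 0.91, 0 and 0.28 in DMSO.

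**Figure D4:**
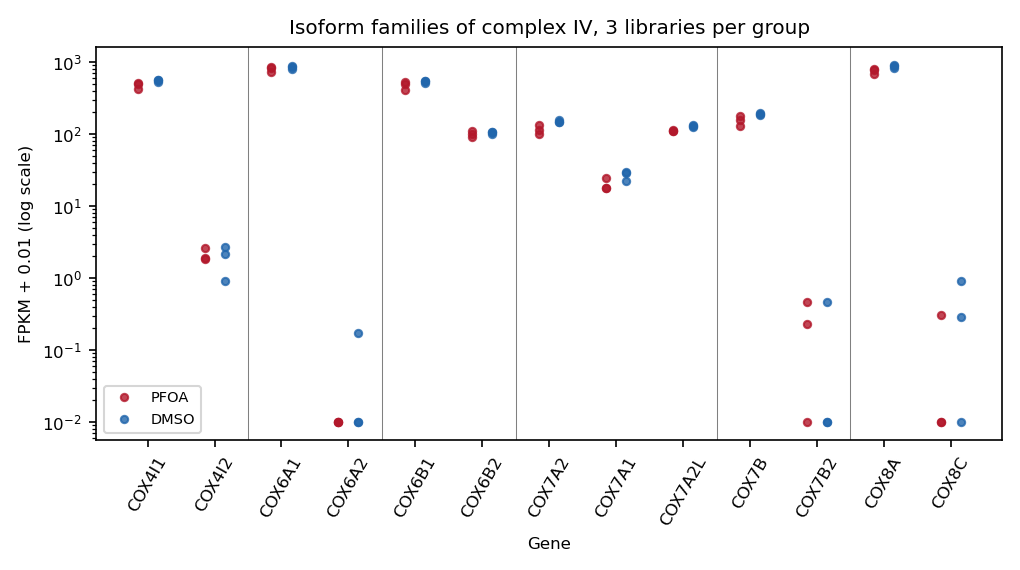
Each dot is a library (PFOA left, DMSO right), showing FPKM + 0.01 on a log axis for the isoform families of complex IV, with families separated by lines; values listed at 0 sit at 0.01. COX6B2 near 100 FPKM and COX7A1 at 17.7 to 29.9 FPKM are well above the other tissue forms.

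Complex V, the ATP synthase, had 17 of 17 tested subunits lower and 9 lower at an unadjusted p under 0.05, with a median of −0.19. Of all tested genes 52.4% were lower, 12.5% at that p. After the length trend was taken out 12 of 17 were lower, 4 at that p (median −0.047), against 6.77% of all tested genes at that p. After quantile normalization 13 of 17 were lower, 6 at that p, against 9.38% of all tested genes at that p. Without PFOA 1 the median was −0.11. On the deposited scale, all 5 subunits of the catalytic F1 head were lower, 2 of them at an unadjusted p under 0.05. Atp5a1 (now Atp5f1a), the alpha subunit, was at 661, 676 and 675 FPKM in PFOA and 674, 667 and 675 in DMSO (−0.0027, 95% confidence interval −0.090 to 0.084; limma adjusted p = 0.974), and its value turned positive under both scalings (0.074 and 0.085). Atp5b (Atp5f1b), the catalytic beta subunit, was at 1113, 1163 and 1140 FPKM in PFOA, against 1258, 1225 and 1183 in DMSO (−0.10, SE 0.047; limma adjusted p = 0.254), with the groups apart, but at 0.035 after quantile normalization. Atp5c1 (Atp5f1c), the gamma subunit of the rotating shaft, was at 283, 292 and 310 FPKM in PFOA and 345, 348 and 322 in DMSO (−0.20, SE 0.049; limma adjusted p = 0.128). Alpha and beta form the same hexamer, and within libraries the ratio of Atp5b to Atp5a1 was 1.70 ± 0.020 in PFOA and 1.82 ± 0.058 in DMSO (SD, n = 3 each; no overlap, two-sided exact permutation p = 0.1). The ratio of Atp5c1 to Atp5a1 was 0.44 ± 0.017 in PFOA and 0.50 ± 0.024 in DMSO, also with no overlap (exact permutation p = 0.1). Atp5d and Atp5e, the remaining head subunits, had log2 fold changes of −0.15 and −0.19, and Atp5e stood at −0.083 without PFOA 1 and 0.037 after the length trend was taken out.

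The c ring, which turns as protons pass, is built from 3 genes that encode the same mature protein. Their summed level was 1007, 1155 and 1116 FPKM in PFOA, against 1233, 1248 and 1272 in DMSO, with no overlap (two-sided exact permutation p = 0.1). Atp5g1 (Atp5mc1) was at 289, 339 and 317 FPKM in PFOA and 366, 367 and 354 in DMSO (−0.20, SE 0.058; limma adjusted p = 0.137). Atp5g2 (Atp5mc2) was at 417, 503 and 471 FPKM in PFOA and 533, 526 and 536 in DMSO (−0.20, SE 0.065; limma adjusted p = 0.157), and Atp5g3 (Atp5mc3) at 300, 313 and 327 FPKM in PFOA and 334, 355 and 382 in DMSO (−0.19, SE 0.056; limma adjusted p = 0.145). With one sum Atp5g1, Atp5g2 and Atp5g3 stood at −0.12, −0.11 and −0.099, against a median of 0.071 over all tested genes. After the length trend was taken out they stood at −0.24, −0.035 and −0.016. The summed level keeps the scaling of the deposited libraries. The shares of the 3 genes differed between the groups by less than their spread: Atp5g2 gave 42.4 ± 1.1% of the sum in PFOA and 42.5 ± 0.60% in DMSO (SD, n = 3 each; exact permutation p = 1).

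In the peripheral stalk, which holds the head still, 2 of 4 subunits were lower at an unadjusted p under 0.05. Of all tested genes 12.5% were. Atp5pb, its b subunit, was at 262, 278 and 259 FPKM in PFOA, against 303, 310 and 294 in DMSO (−0.18, SE 0.042; limma adjusted p = 0.127). Atp5h, Atp5j and Atp5o had log2 fold changes of −0.24, −0.092 and −0.080, which were −0.15, −0.020 and −0.039 without PFOA 1. After the length trend was taken out Atp5j and Atp5o stood at 0.066 and 0.074. Of the small membrane subunits, which shape the dimer of the synthase, 2 of 5 were lower at that p. Atp5k (Atp5me), subunit e, had the smallest p of the 45 tested subunits and the second smallest among the 11876 tested. It was at 193, 201 and 193 FPKM in PFOA, against 242, 238 and 239 in DMSO (−0.29, SE 0.035; limma adjusted p = 0.11). Within each group the libraries were nearly equal, and the groups were far apart. Its transcript is the shortest of the 48, 371 nt, and with the trend on length removed its log2 fold change was −0.047.

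The largest point estimate of the 45 was that of Atp5l (Atp5mg), subunit g, at −0.44 (SE 0.12; limma adjusted p = 0.137), but 84.8% of its 50-nt words occur in transcripts of other genes. Atp5mpl (Atp5mj) was at 216, 330 and 300 FPKM in PFOA and 279, 303 and 289 in DMSO (−0.062, SE 0.13; limma adjusted p = 0.82), and was at 0.12 without PFOA 1. Atp5md and Atp5j2 overlapped between the groups, with PFOA 1 far below the other PFOA libraries; without it their log2 fold changes were −0.050 and −0.088. The ATPase inhibitory factor, listed as Atpif1 and outside the selection, was at 163, 191 and 183 FPKM in PFOA and 188, 195 and 192 in DMSO (−0.10, SE 0.057; limma adjusted p = 0.341).

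Genes that assemble the complexes were also mostly lower on the deposited scale. Of 40 tested assembly factors 31 were lower, 11 at an unadjusted p under 0.05 (27.5%) and 1 higher, with a median log2 fold change of −0.11. Of all tested genes 12.5% were lower at that p and 8.56% higher. After quantile normalization the median of the assembly factors was −0.095, beside −0.11 for the subunits. With one sum it was −0.025, beside −0.10, and 25 of 40 were lower, 5 at that p (4.21% of all tested genes). After the length trend was taken out it was −0.023, beside −0.041. There 25 were lower and 15 higher, with 6 and 2 at that p (6.77% and 6.62% of all tested genes). The difference between the lists was not tested. On the deposited scale 20 of 25 complex IV assembly genes were lower, with 6 lower at that p and 1 higher. Coa6, which helps deliver copper to the enzyme, was at 12.01, 15.71 and 13.67 FPKM in PFOA and 19.3, 17.8 and 18.5 in DMSO (−0.41, SE 0.084; limma adjusted p = 0.111), and Coa3, which stabilises the core subunit COX1, was at 45.2, 56.4 and 49.3 in PFOA and 61.7, 60.5 and 57.7 in DMSO (−0.26, SE 0.073; limma adjusted p = 0.137). Both were apart between the groups. For complex III assembly 3 of 5 were lower, all at that p. Uqcc2 was at 91.0, 111 and 105 FPKM in PFOA and 117, 131 and 124 in DMSO (−0.28, SE 0.074; limma adjusted p = 0.133), and Uqcc1 at 12.07, 12.04 and 11.72 in PFOA and 12.8, 12.8 and 13.4 in DMSO (−0.11, SE 0.044; limma adjusted p = 0.2). For complex II assembly 4 of 4 were lower, 2 at that p, Sdhaf3 (5.74 ± 2.0 FPKM in PFOA and 7.99 ± 1.0 in DMSO) and Sdhaf4 (9.79 ± 0.74 in PFOA and 11.0 ± 0.68 in DMSO; SD, n = 3 each). For complex V assembly 4 of 5 were lower and 0 at that p. Tmem70 was at 11.6 ± 0.30 FPKM in PFOA and 13.1 ± 1.6 in DMSO and Tmem242 at 27.1 ± 1.8 in PFOA and 28.4 ± 1.1 in DMSO. The lyase Hccs, which attaches heme to cytochrome c, was at 12.5 ± 0.14 FPKM in PFOA and 12.3 ± 0.33 in DMSO (SD, n = 3 each).

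On the deposited scale transcriptional regulators and enzymes of the tricarboxylic acid cycle had medians closer to 0 than the subunits. Of 11 tested regulators 4 were lower and 7 higher (median 0.016), with 1 lower (9.09%) and 2 higher at an unadjusted p under 0.05, against 12.5% and 8.56% of all tested genes. The nuclear receptor Esrra was at 7.06 ± 0.39 FPKM in PFOA and 7.86 ± 0.27 in DMSO, and Gabpb2, a partner of GABPA, was at 12.1 ± 1.2 in PFOA and 10.53 ± 0.48 in DMSO (SD, n = 3 each; limma adjusted p = 0.222 and 0.2). Of 13 enzymes of the cycle that feeds the chain 8 were lower and 5 higher (median −0.034), with 2 lower (15.4%) and 1 higher at that p, a share near that of all tested genes. With one sum 10 regulators and 10 enzymes were higher. Their medians were then 0.10 and 0.054, beside −0.10 for the subunits and 0.071 over all tested genes. After the length trend was taken out they were −0.0043 and 0.025, beside −0.041 for the subunits. The difference between the lists was not tested. Ogdh, of the 2-oxoglutarate dehydrogenase complex, was at 61.7, 61.0 and 61.2 FPKM in PFOA, against 57.0, 55.7 and 56.1 in DMSO (0.12, SE 0.033; limma adjusted p = 0.134). Suclg1, of succinyl-CoA ligase, was at 72.0, 72.4 and 69.1 FPKM in PFOA and 77.6, 82.3 and 76.1 in DMSO (−0.14, SE 0.042; limma adjusted p = 0.141). Both were apart between the groups, in opposite directions.

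**Figure D5:**
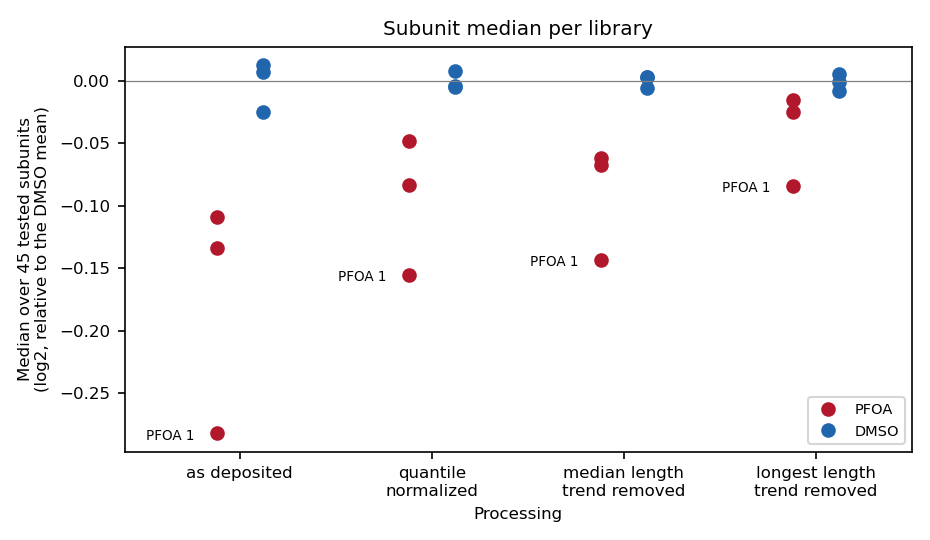
Each dot is the median over the 45 tested subunits in a library (PFOA left, DMSO right), on the log2 scale relative to the DMSO mean, under 4 kinds of processing. PFOA 1 is the lowest under each, and the PFOA libraries lie at −0.28 to −0.11 as deposited and at −0.084 to −0.016 after the longest-transcript trend was taken out, where DMSO lies at −0.0085 to 0.0053.

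The identity of the cells was checked against marker genes. All 9 pluripotency markers were expressed, and they summed to 3685 to 4146 FPKM in PFOA and 4270 to 4486 in DMSO. Of the 9, 4 were lower and 5 higher in PFOA, with a median log2 fold change of 0.040. The lower sum came mainly from Dppa5a, at 1672, 2125 and 2058 FPKM in PFOA and 2210, 2304 and 2203 in DMSO, and Pou5f1, at 849, 890 and 917 in PFOA and 965, 1018 and 955 in DMSO. Tfcp2l1 was higher in each PFOA library, at 29.3, 25.7 and 25.8 FPKM in PFOA and 22.4, 22.4 and 24.1 in DMSO (0.22, SE 0.059; limma adjusted p = 0.134), as was Esrrb (0.067). The 7 trophectoderm markers summed to 495 to 564 FPKM in PFOA and 510 to 583 in DMSO, mostly keratins 8 and 18, with Elf5 at or below 0.1. The 7 feeder fibroblast markers summed to 17.6 to 19.4 FPKM in PFOA and 19.5 to 24.0 in DMSO, and the 5 primitive endoderm markers to 3.63 to 4.10 in PFOA and 3.33 to 4.21 in DMSO. The 4 muscle markers summed to 3.98 to 4.23 FPKM in PFOA and 3.92 to 4.18 in DMSO, and the 3 neuronal markers to 86.5 to 95.2 in PFOA and 96.6 to 99.6 in DMSO. The part of these markers in the subunit differences was not tested, and in bulk RNA fewer cells of a type and less RNA per cell cannot be told apart.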

How the data were processed

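FPKM per gene was deposited by the authors to 2 decimals, with 1 column per library. Per the submitters' processing notes HISAT2 2.0.4, Bowtie2 2.2.5 and build GRCm39 were used; no source used here names the step of each, the counter or the gene models. Per the labels' protocols, 1.2 µg of polyA-selected TRIzol RNA with an integrity number above 8.0 was sequenced on a BGISEQ-500. Depth is unknown: of 271 low values 45% lay within 0.15 of a whole multiple of the gene's smallest value, against 30% if spread evenly, so read counts could not be rebuilt from the values and count models were not used.

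Rows with a mean FPKM of at least 1 were tested as log2(FPKM + 1) in limma 3.58.1 (R 4.3.3; two-sided, variance trend, Benjamini-Hochberg over all 11876 tested genes); a fold change on that scale understates that of low genes. It was first tested on simulated libraries holding known changes. Single ratios used exact permutation tests (scipy 1.17.1). Over these 13 tests the Benjamini-Hochberg value was 0.217 for each p of 0.1 and 0.325 for each of 0.2. Transcript lengths (found for 98.7% of tested genes) and 50-nt words shared between genes were taken from GENCODE M21, which is on another build. At least 20% of the words of 10 members are shared: Atp5h, Atp5l, Atp5o, Atp5pb, Cox5a, Cox5b, Cox7c, Cycs, Uqcrb and Uqcrc2, whose values are uncertain where reads could be split.

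Members and lists were chosen with earlier results of these data known. Members given in full are, per complex, the 3 smallest and 2 largest p, fixed catalytic subunits and the isoform families; of each other list the 2 smallest p. Uqcrc1, Uqcrh, Uqcr10, Cox5a, Cox5b, Cox6c, Atp5d, Atp5e, Atp5h, Atp5j, Atp5j2, Atp5l, Atp5md and Atp5o fall outside that rule and are named from their values.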

Additional observations from a re-analysis of the deposited data

How the results depend on the processing

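With a pseudocount of 0.1, no filter or a minimum mean of 5 FPKM, 28 subunits were lower at an unadjusted p under 0.05, as in the report. The median over the subunits was −0.11 after quantile normalization, −0.10 with one sum, −0.041 with the longest-transcript trend removed and −0.095 with the median-transcript trend removed, an alternative chosen after seeing the data. With one sum the median over all tested genes was 0.071. Subunits lower at an unadjusted p under 0.05 then numbered 18 with one sum, 12 with the longest-transcript trend removed (2 were higher) and 17 with the median-transcript trend removed. Over all genes 500, 804 and 936 were lower at that p under these 3 settings, and 2506 higher with one sum. The adjusted calls, 1 lower gene in the report, were 0 with no filter, no variance trend or the longest-transcript trend removed and 2 with library weights.

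Leaving out each library in turn gave subunit medians of −0.22 to −0.11, 20 to 32 subunits lower at an unadjusted p under 0.05 and 0 to 6 subunits called at an adjusted p under 0.05 in limma. Without PFOA 2 the 6 were Atp5k, Atp5l, Cox7a2, Cox7c, Cycs and Uqcr11 (adjusted p 0.0353 to 0.0498), and without DMSO 3 Atp5k was called (0.0379). Among other genes named, Coa3, Coa6, Sdhaf3 and Timm8b were also called without PFOA 2 (0.0353 to 0.0474). Over all genes, 0 to 91 were called lower and 0 to 13 higher, and at an unadjusted p under 0.05 there were 983 to 1601 lower and 567 to 993 higher.

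The labels number the libraries 1 to 3 in each group and do not say whether the numbers pair them. Deviations of same-numbered libraries correlated at −0.11, −0.0095 and −0.14, and those of differently numbered libraries at −0.065 to 0.15. Values this small for both cannot show whether same-numbered libraries were handled together. With the replicate block 26 subunits were lower at an unadjusted p under 0.05, against 10.7% of all tested genes, and 0 genes were called lower.

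Of 68 genes examined, which hold all tested subunits, 21 changed sign somewhere, and of their 1087 alternative values 1023 kept direction and side of the threshold. Log2 fold changes that turned positive after quantile normalization were Atp5a1 0.074, Atp5b 0.035, Atp5mpl 0.0065, Atp5o 0.035, Cox5a 0.0029, Cox6a1 0.079 and Uqcrc2 0.033. With one sum they were Atp5a1 0.085, Atp5mpl 0.025, Atp5o 0.0078, Ccdc127 0.017, Cox6a1 0.0027, Cox6b2 0.039, Cyct 0.043, Tmem242 0.018 and Uqcrc2 0.064. With library weights they were Atp5a1 0.0047, Atp5mpl 0.021 and Cox6b2 0.0025. With the longest-transcript trend removed they were Atp5a1 0.024, Atp5e 0.037, Atp5j 0.066, Atp5mpl 0.13, Atp5o 0.074, Atpif1 0.10, Cox5a 0.094, Cox6a1 0.11, Cox6b2 0.15, Cyct 0.14, Sdhaf4 0.018, Tmem242 0.074, Uqcr10 0.071, Uqcrc2 0.042 and Uqcrh 0.0027. With the median-transcript trend removed they were Atp5mpl 0.060, Atp5o 0.018, Atpif1 0.010, Cox5a 0.0062, Cox6a1 0.017, Cox6b2 0.074, Cyct 0.057, Tmem242 0.013, Uqcrc2 0.042 and Uqcrq 0.020. Leaving out a library gave both signs for Atp5a1 (−0.0083 to 0.0079), Atp5mpl (−0.19 to 0.12), Cox4i2 (−0.12 to 0.35), Cox6b2 (−0.11 to 0.018), Cyct (−0.11 to 0.00042), Hccs (−0.0010 to 0.034), Sdha (−0.0037 to 0.016) and Uqcrc2 (−0.044 to 0.0070). Apart from the settings' own construction the cause was not tested. Depth is unknown, and 3 libraries a group limit each interval.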

Other observations

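Some subunit genes share a start region with a gene read in the opposite direction. In GENCODE M21, 8 tested subunits had a protein-coding gene whose start lay within 1000 bp on the other strand and which was also tested. Median log2 fold changes were −0.20 for the subunits and −0.16 for the partners. Of the 8 partners 7 were lower, against 52.4% of all tested genes. At an unadjusted p under 0.05, 3 were lower and 1 higher, against 12.5% and 8.56% of all tested genes. Gm27021, beside Cox4i1, was among those 3 at a low level, with 4.21, 3.67 and 1.34 FPKM in PFOA and 5.26, 5.70 and 4.47 in DMSO (−0.67, against −0.23). Beside Sdhd, Timm8b, which encodes a small chaperone of the mitochondrial intermembrane space, was at 67.7, 92.6 and 76.3 FPKM in PFOA and 100, 103 and 99.6 in DMSO, with the groups apart (−0.36, against −0.14 for Sdhd). Beside Atp5h, the partner Kctd2 was at 7.84, 8.27 and 7.85 FPKM in PFOA and 9.32, 10.9 and 9.50 in DMSO, also apart (−0.28, against −0.24). Beside Atp5md, the partner Pdcd11, a ribosome biogenesis factor, was at 42.7, 40.9 and 41.9 FPKM in PFOA and 37.6, 38.3 and 39.8 in DMSO, so it was higher in each PFOA library (0.11, against −0.31). Atp5md itself overlapped between the groups and stood at −0.050 without PFOA 1. Ccdc127, beside Sdha, was at 12.6, 11.5 and 11.6 FPKM in PFOA and 12.25, 13.01 and 12.22 in DMSO and overlapped, as Sdha did. These pairs were looked for after the fold changes were known.

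Across the 6 libraries most subunits followed the same course. The correlation of a subunit with the median of the other 44 reached 0.99 for Atp5g1, Cycs and Atp5h, whereas it was −0.39 for Sdha, 0.010 for Cox4i2 and 0.55 for Atp5a1. These values rest on 6 libraries that share the treatment and the low PFOA 1 library, and no p is given for them.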
